A study of Caenorhabditis elegans with 12 samples.

Results

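The ribosomal RNA genes of the rDNA repeat were examined in H3K9me3 CUT&Tag libraries from *C. elegans* germline nuclei. The genes were chosen by identifier, from WBGene00004512 to WBGene00004677, and numbered 5 of the 46760 genes counted. They are 2 copies of the 18S gene (rrn-1.1 and rrn-1.2), 1 copy of the 5.8S gene (rrn-2.1), 1 copy of the 26S gene (rrn-3.1) and a partial 26S gene (rrn-3.56). These 5 genes covered 0.0247% of the exon length listed for all genes. CUT&Tag uses a transposase, brought to chromatin by an antibody, to cut out and tag the DNA around the bound sites, and the count of a gene is the number of sequenced fragments assigned to its exons. H3K9me3, trimethylated lysine 9 of histone H3, is a chromatin mark associated with silencing.

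Nuclei were purified from the germline of day 1 adults kept at 20 °C. The groups were hrde-2 mutants (the allele hrde-2/enri-3(qe20) V in strain FD53), hrde-1 mutants (the allele hrde-1(tm1200) III in strain USC661) and wild-type animals (strain N2). HRDE-1 is the nuclear Argonaute of the germline, which is guided by small RNAs to the transcripts of its targets, and HRDE-2 acts with it. Each genotype had 3 H3K9me3 libraries, described as biological triplicates, and 1 library labelled IgG, which received the secondary antibody without a primary antibody. The H3K9me3 libraries held 6254908, 6982902 and 6371367 counts in hrde-2 mutants, 6677578, 8317686 and 8683963 in hrde-1 mutants and 6882011, 1470699 and 8719542 in wild-type. The IgG libraries held 13950, 37617 and 233980 counts in hrde-2, hrde-1 and wild-type. According to the study, the antibody raised against H3K9me3 also recognised H3K27me3 and H4K20me3, and fragments from those marks may be among the counts. As CPM, counts scaled to a common library total, the gene hrde-2 had 23.1 to 25.6 CPM in hrde-2 H3K9me3 libraries and 17.4 to 24.2 CPM in hrde-1, against 19.04 to 24.7 CPM in wild-type. The gene hrde-1 had 118 to 123 CPM in hrde-2 and 86.7 to 94.8 CPM in hrde-1, against 83.1 to 87.7 CPM in wild-type. The hrde-2 libraries thus stood above the others for the gene hrde-1 (log2 fold change over wild-type 0.39 ± 0.12, edgeR adjusted p = 0.182). Neither gene was lower in its own mutant, so these DNA counts gave no check of the genotype labels, and no expression was measured to check the germline label.

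In *C. elegans* the rDNA is a tandem array at the right end of chromosome I. RNA polymerase I transcribes each unit as a single precursor, which is processed into the 18S rRNA of the small ribosomal subunit and the 5.8S and 26S rRNAs of the large subunit. The 5S rRNA comes from a separate array on chromosome V and is made by RNA polymerase III. Small RNAs antisense to rRNA are known in *C. elegans* and act through the nuclear RNAi pathway, which makes the rDNA a locus of interest in mutants of nuclear RNAi.

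The reference genome (WS258, with the same gene coordinates as WBcel235) holds little more than 1 unit of the array. All 5 genes lie on the plus strand of chromosome I. The partial 26S gene rrn-3.56 (WBGene00004677), annotated as a pseudogene, comes first at 15060299 to 15061150 (852 bp). It is followed by the 18S gene rrn-1.1 (WBGene00004512) at 15062083 to 15063836 (1754 bp), the 5.8S gene rrn-2.1 (WBGene00004567) at 15064301 to 15064453 (153 bp) and the 26S gene rrn-3.1 (WBGene00004622) at 15064838 to 15068346 (3509 bp). The second 18S gene, rrn-1.2 (WBGene00004513), lies at 15069280 to 15071033 (1754 bp) and ends 1401 bases before the end of the chromosome. The starts of the 18S genes are 7197 bp apart, their sequences are 100% identical, and rrn-3.56 is 99.9% identical to the 3′ end of rrn-3.1. Fragments from every unit of the array are therefore counted on these few annotated copies. A count of these genes sums over all units, and the number of units and the number of fragments per unit cannot be told apart.

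Antisense non-coding RNA genes overlap 4 of the 5 genes. They cover 34.0% of rrn-3.56 (F31C3.16), 19.04% of rrn-1.1 (F31C3.15), 19.4% of rrn-3.1 (F31C3.14) and 8.55% of rrn-1.2 (F31C3.13), whereas no gene overlaps rrn-2.1. The authors counted without strand, so fragments within these overlaps cannot be assigned to a strand and those that fit both genes equally can go uncounted. F31C3.15 and F31C3.13, which lie inside the 18S genes, had 0 counts in all 12 libraries, whereas F31C3.16 and F31C3.14 each had between 1020 and 5585 counts in the H3K9me3 libraries and between 7 and 399 in the IgG libraries.

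The first question was what share of the counts fell on the rDNA with and without the H3K9me3 antibody. The 5 genes took 16.3%, 13.5% and 17.0% of the gene counts in the hrde-2 H3K9me3 libraries. They took 21.9%, 13.8% and 21.1% in the hrde-1 H3K9me3 libraries, and 17.3%, 17.7% and 25.4% in the wild-type H3K9me3 libraries. In the IgG libraries they took 25.5% in hrde-2 (95% Wilson interval 24.8% to 26.3%), 24.8% in hrde-1 (24.3% to 25.2%) and 37.1% in wild-type (36.9% to 37.3%). Each of the 9 H3K9me3 libraries therefore lay below the IgG library of its own genotype, and the intervals, which cover counting error only, did not reach the H3K9me3 values. Averaged over genotypes, the share was 18.2% with the H3K9me3 antibody and 29.1% in IgG, a difference of -10.9 percentage points. Permuting the antibody labels within genotypes gave p = 0.015625 (exact permutation test, two-sided), the smallest that 64 arrangements allow, and 0.0625 after Benjamini-Hochberg adjustment over the 4 comparisons of this share. The result depended on counting shares of all gene counts: as CPM scaled by TMM, which sets each library against the bulk of its genes, the difference was -50694 CPM (exact permutation p = 0.516). The ratio of the mean H3K9me3 share to the IgG share was 0.610 in hrde-2, 0.765 in hrde-1 and 0.542 in wild-type.

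**Figure D1:**
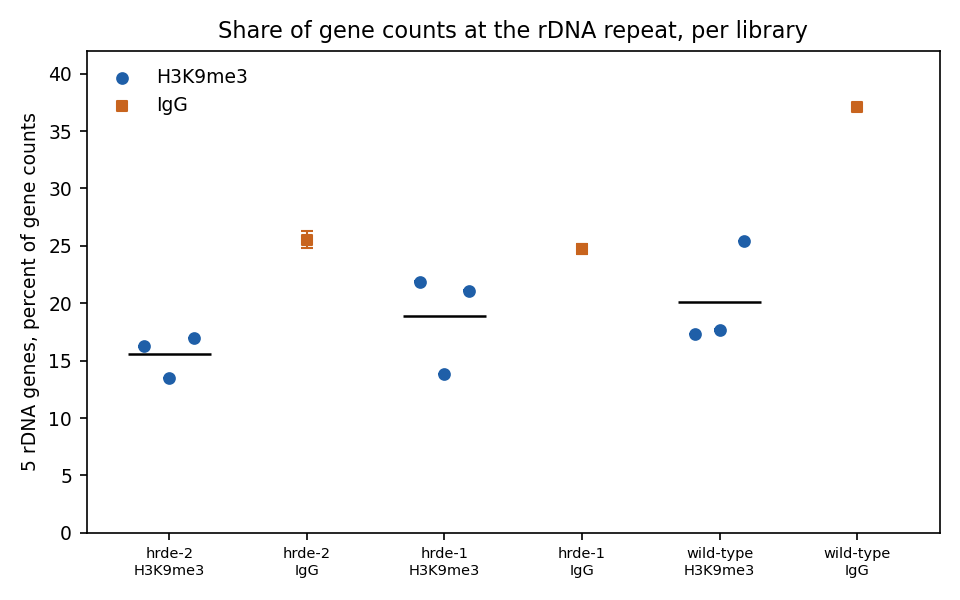
Percent of gene counts on the 5 rDNA genes (y axis) in each library, by genotype (x axis), with H3K9me3 and IgG libraries marked separately, short lines at the H3K9me3 means and 95% Wilson intervals on the IgG values. The H3K9me3 libraries lie between 13.5% and 25.4% and each is below the IgG library of its genotype (25.5%, 24.8% and 37.1% in hrde-2, hrde-1 and wild-type).

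The rDNA took the largest counts of any genes in every library, with or without the H3K9me3 antibody. The 26S gene rrn-3.1, the 18S gene rrn-1.2 and the 18S gene rrn-1.1 ranked 1, 2 and 3 among all genes in each of the 12 libraries, and rrn-2.1 and rrn-3.56 ranked between 4 and 6. Of the counts on chromosome I, the 5 genes held between 51.1% and 69.9% in the H3K9me3 libraries, against 69.8%, 70.4% and 80.9% in the hrde-2, hrde-1 and wild-type IgG libraries. Per kb of exon, the 5 genes together had 813 ± 117, 1071 ± 310 and 1146 ± 344 times the mean of autosomal protein-coding genes in the hrde-2, hrde-1 and wild-type H3K9me3 libraries (SD, n = 3 each). The same ratio was 1540, 1551 and 2815 in the IgG libraries of hrde-2, hrde-1 and wild-type. It was lower with H3K9me3 by a log2 difference of -0.95 (exact permutation test stratified by genotype, p = 0.015625, adjusted p = 0.125 over 16 comparisons with other genes). This ratio contains the number of units in the array as well as the fragments from each unit.

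The 18S genes encode the RNA of the small subunit. In H3K9me3 libraries, rrn-1.1 took 2.62%, 2.16% and 2.66% of counts in hrde-2, 3.38%, 2.14% and 3.32% in hrde-1 and 2.77%, 2.81% and 3.97% in wild-type, against 3.89%, 3.83% and 5.63% in the hrde-2, hrde-1 and wild-type IgG libraries. The identical copy rrn-1.2 took 2.75%, 2.30% and 2.86% in hrde-2, 3.63%, 2.29% and 3.58% in hrde-1 and 2.92%, 2.94% and 4.31% in wild-type, against 4.11%, 4.06% and 6.03% in the hrde-2, hrde-1 and wild-type IgG libraries. Both copies were below the IgG library of their genotype in every H3K9me3 library. The copies divided the 18S counts almost evenly, rrn-1.1 holding between 47.99% and 48.87% in the 12 libraries, and it was the smaller of the pair in each. The antisense overlap is larger in rrn-1.1 (19.04%) than in rrn-1.2 (8.55%), and its bearing on this split was not tested.

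The 5.8S gene rrn-2.1 had the highest counts per kb, although at 153 bp it is short enough for many fragments to reach past its ends. It took 1.05%, 0.867% and 1.12% of counts in the hrde-2 H3K9me3 libraries, 1.48%, 0.912% and 1.39% in hrde-1 and 1.104%, 1.13% and 1.68% in wild-type, against 1.82%, 1.54% and 2.21% in the hrde-2, hrde-1 and wild-type IgG libraries. Replicate 3 of wild-type and replicates 1 and 3 of hrde-1 were the highest of the H3K9me3 libraries, and every one of the 9 lay below its IgG library.

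The 26S gene rrn-3.1, which encodes the main RNA of the large subunit, held more than any other gene. Its share was 8.92%, 7.38% and 9.36% in the hrde-2 H3K9me3 libraries, 12.2%, 7.70% and 11.6% in hrde-1 and 9.58%, 9.85% and 14.05% in wild-type, against 14.1%, 13.8% and 20.9% in the hrde-2, hrde-1 and wild-type IgG libraries. The partial copy rrn-3.56 took 0.910%, 0.777% and 0.971% in hrde-2, 1.23%, 0.778% and 1.21% in hrde-1 and 0.935%, 0.953% and 1.43% in wild-type, against 1.62%, 1.55% and 2.36% in the IgG libraries of hrde-2, hrde-1 and wild-type. Across the 9 H3K9me3 libraries the 5 genes moved together, with Pearson's r of log2 CPM between 0.989 and 0.998 for each pair. These correlations describe genes of a single repeat unit that share fragments, libraries and totals.

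**Figure D2:**
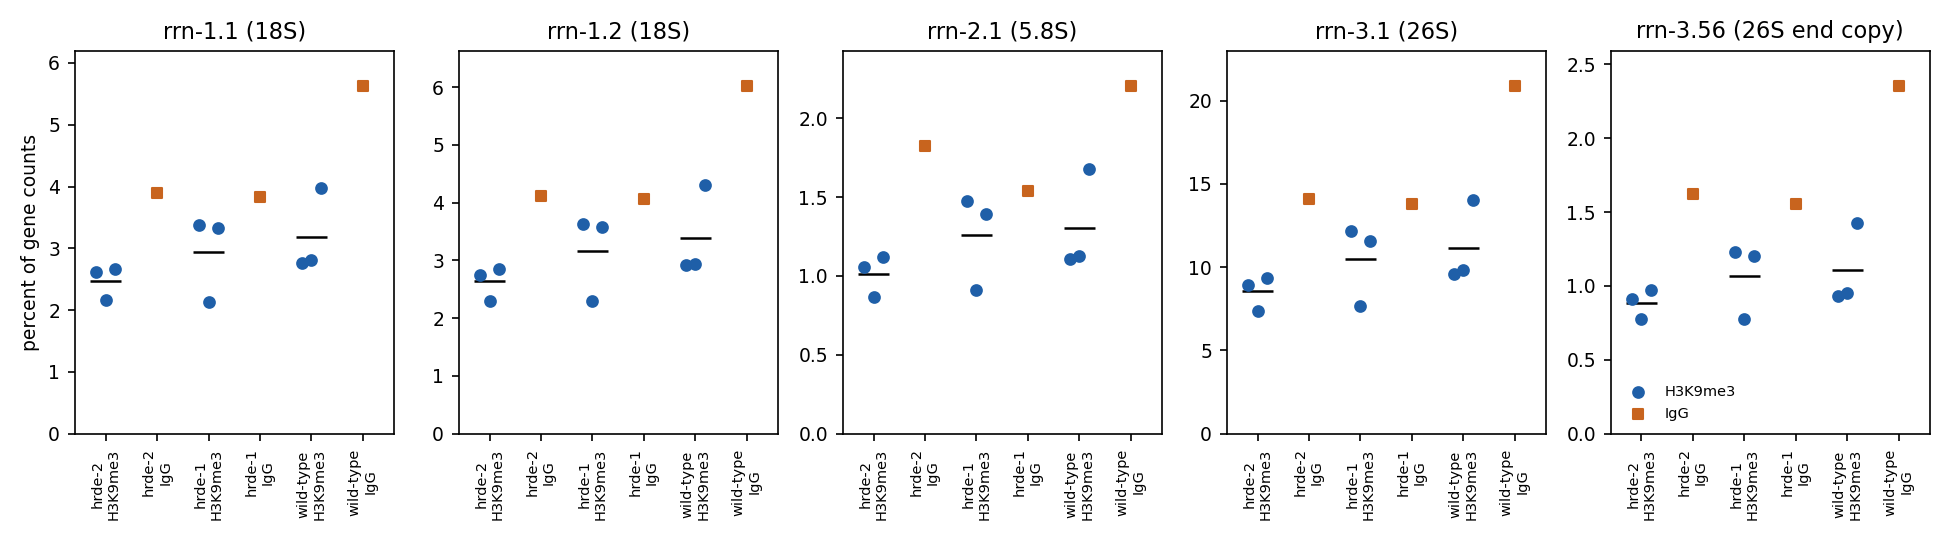
Percent of gene counts (y axis) on each of the 5 rDNA genes, 1 panel per gene, in each H3K9me3 and IgG library by genotype (x axis). In each panel the 3 H3K9me3 libraries of a genotype lie below its IgG library, and wild-type replicate 3 is the highest H3K9me3 library of each 18S gene, of rrn-2.1, of rrn-3.1 and of rrn-3.56.

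The second question was whether the share of the rDNA differed between genotypes in the H3K9me3 libraries. The mean share was 15.6 ± 1.84% in hrde-2, 18.9 ± 4.44% in hrde-1 and 20.1 ± 4.59% in wild-type (SD, n = 3 each). The 3 hrde-2 libraries all lay below the 3 wild-type libraries, with a difference of -4.57 percentage points and p = 0.1 (exact permutation test, two-sided; adjusted p = 0.2), the smallest p that 3 libraries against 3 can give. The hrde-1 and wild-type libraries overlapped, with a difference of -1.21 points (exact p = 0.8), and so did the hrde-2 and hrde-1 libraries, with a difference of -3.35 points (exact p = 0.3, adjusted p = 0.4). The comparisons of hrde-2 and of hrde-1 with wild-type share the wild-type libraries. One wild-type library set much of the size of the first of these: without wild-type replicate 3 the difference between hrde-2 and wild-type was -1.92 points.

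In the edgeR fit over the 9 H3K9me3 libraries, 28691 genes passed the filter on low counts, among them 5 of the 5 rDNA genes. Between hrde-2 and wild-type, 0 of the 5 were called at an adjusted p under 0.05, where 0.495% of all genes were called. All 5 had a lower value in hrde-2, with log2 fold changes of -0.50 ± 0.21 for rrn-3.1, -0.48 ± 0.19 for rrn-2.1, -0.48 ± 0.20 for rrn-1.2, -0.47 ± 0.20 for rrn-1.1 and -0.43 ± 0.19 for rrn-3.56 (± SE, edgeR, adjusted p between 0.395 and 0.461). The unadjusted p was under 0.05 for 5 of 5, against 9.30% of all genes, and DESeq2 called 0. With no filter on low counts, where 41702 genes were tested, edgeR called 5 of 5 lower in hrde-2 (adjusted p between 0.00777 and 0.0358), where 0.417% of all genes were called lower. Leaving out wild-type replicate 3 brought rrn-3.1 to -0.19 and rrn-2.1 to -0.15, so the size of the difference rested in large part on that library.

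Between hrde-1 and wild-type, the log2 fold changes lay between -0.12 (rrn-1.1) and -0.06 (rrn-3.56), each smaller than its SE. The edgeR-adjusted p-values were between 0.881 and 0.948, 0 of 5 genes were called against 0.76% of all genes, 0 had an unadjusted p under 0.05, against 11.01% of all genes, and DESeq2 called 0. The sign turned to higher in hrde-1 for all 5 without wild-type replicate 3 (0.17 to 0.28). It also turned without hrde-1 replicate 2 (0.10 to 0.16).

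Between hrde-2 and hrde-1, all 5 genes had lower values in hrde-2, with log2 fold changes between -0.42 (rrn-2.1) and -0.35 (rrn-1.1). None was called by edgeR (adjusted p between 0.742 and 0.841), where 0.443% of all genes were called. The unadjusted p was under 0.05 for 1 gene (rrn-2.1, 0.0378), against 6.44% of all genes, and DESeq2 called 0. The median log2 fold change of all genes was between 0.00 and 0.01 in the 3 comparisons.

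**Figure D3:**
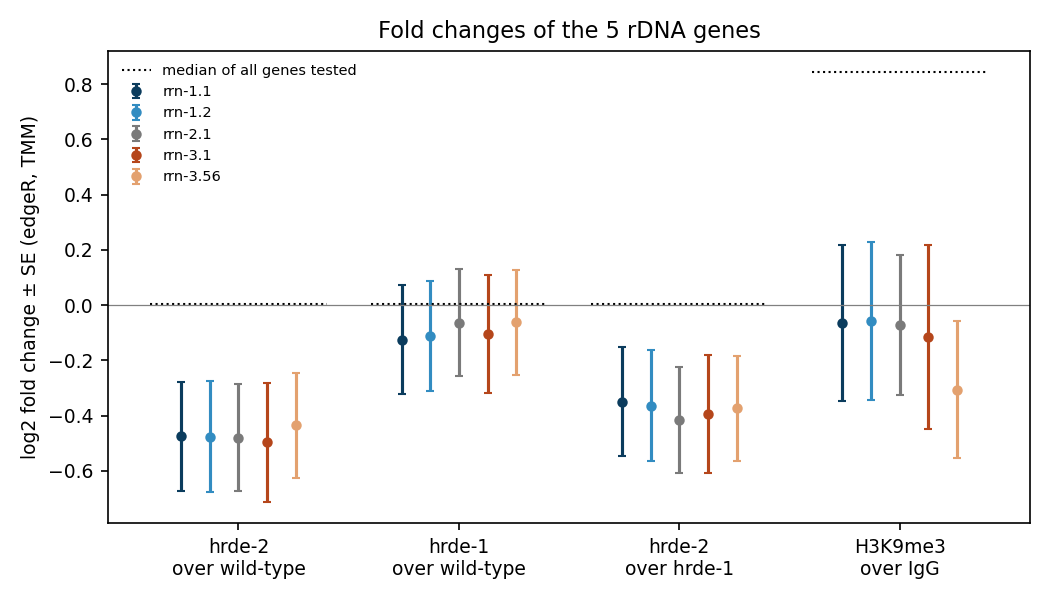
Log2 fold changes (y axis, edgeR with TMM scaling, error bars ± SE) of the 5 rDNA genes for hrde-2 over wild-type, hrde-1 over wild-type, hrde-2 over hrde-1 and H3K9me3 over IgG (x axis). The values of hrde-2 over wild-type lie between -0.50 and -0.43, those of hrde-1 over wild-type between -0.12 and -0.06, and none passed an adjusted p of 0.05.

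For H3K9me3 against IgG, a fit over all 12 libraries with genotype as a term gave log2 fold changes between -0.31 (rrn-3.56) and -0.06 (rrn-1.2). In this edgeR fit 0 of 5 genes were called (adjusted p between 0.438 and 0.907), where 6.39% of all genes were called, 0 had an unadjusted p under 0.05, against 24.7% of all genes, and DESeq2 called 0. With 3 shallow IgG libraries, a missed threshold does not show that the values were alike. These values are relative to the other genes after TMM scaling, and the median of all genes was 0.84. The values depended on the scaling. In the IgG libraries, 78.9%, 61.8% and 20.1% of autosomal protein-coding genes had 0 counts in hrde-2, hrde-1 and wild-type, and the TMM factors were 2.498, 1.51 and 0.733. Scaled by total counts alone, 5 of 5 genes were called lower with H3K9me3 (-0.85 to -0.62), where 1.29% of all genes were. With the size factors of DESeq2 (RLE) only rrn-3.56 was called lower (-0.78, edgeR adjusted p = 0.00379), where 2.08% of all genes were. Without the wild-type libraries the TMM values turned higher (0.52 to 0.74) and 4 of 5 were called, where 2.49% of all genes were called higher.

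Within genotypes, the wild-type libraries gave the same direction under each scaling tried. All 5 genes were lower in H3K9me3 than in IgG in wild-type, with log2 fold changes of -1.31 ± 0.26 for rrn-3.56, -1.12 ± 0.30 for rrn-3.1, -1.05 ± 0.27 for rrn-1.2, -1.04 ± 0.27 for rrn-1.1 and -0.98 ± 0.26 for rrn-2.1 (edgeR, adjusted p between 0.00279 and 0.0250). Of all genes, 2.49% were called lower in this comparison. The range over the 5 genes was -1.09 to -0.76 with total counts, -1.42 to -1.09 with TMM factors from the other genes and -1.63 to -1.30 with RLE factors, with 5 of 5 called lower in each, where between 1.96% and 4.48% of all genes were called lower. The wild-type group had 1 IgG library, assumed in this fit to vary like the H3K9me3 libraries. Without wild-type replicate 2, the shallowest H3K9me3 library, the values were -1.18 to -0.85 and 1 of 5 genes was called lower, and without wild-type replicate 1 they were -1.16 to -0.82 with 4 called, whereas 5 were called without replicate 3 (-1.64 to -1.31).

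In the mutants the direction depended on the scaling. In hrde-2 the log2 fold changes were 0.56 to 0.78 with TMM, 0 of 5 called by edgeR against 0.0558% of all genes and 3 of 5 with an unadjusted p under 0.05 (8.15% of all genes), whereas with total counts they were -0.87 to -0.64 with 3 called lower, where 0.443% of all genes were. In hrde-1 they were 0.26 to 0.51 with TMM, 0 of 5 called by edgeR against 0.505% of all genes and 0 with an unadjusted p under 0.05, whereas total counts gave -0.54 to -0.29 and RLE -0.37 to -0.12. The median of all genes with TMM was 8.72 in hrde-2 and 7.84 in hrde-1, where most protein-coding genes had no IgG count, against 0.72 in wild-type. The shares above are relative to all gene counts of a library, and only the ratios between genes of the same library, given below, are free of a scaling factor.

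The difference of H3K9me3 over IgG between genotypes was tested as an interaction. Relative to wild-type, it was 1.56 to 1.86 higher on the log2 scale in hrde-2 (edgeR adjusted p between 0.0666 and 0.166) and 1.46 to 1.57 higher in hrde-1 (0.0777 to 0.119). The median of all genes was 7.64 in hrde-2, so the rDNA values lay below it, and 0.91 in hrde-1. In each case 0 of 5 genes were called, where edgeR called 0.0732% and 0.108% of all genes, and 5 of 5 had an unadjusted p under 0.05, against 8.83% and 14.1% of all genes. With TMM factors from the other genes 5 of 5 were called higher in both comparisons, where 0.199% and 0.23% of all genes were. With RLE factors 4 were called higher in hrde-2 (0.0836% of all genes) and 0 in hrde-1, and with total counts the values were -0.08 to 0.23 in hrde-2 and 0.45 to 0.56 in hrde-1. Without wild-type replicate 3, 5 of 5 were called in both comparisons (1.92 to 2.23 in hrde-2 and 1.77 to 1.92 in hrde-1), where 0.136% and 0.345% of all genes were called higher. Between hrde-2 and hrde-1 the difference was 0.07 to 0.35 (adjusted p = 1.00), with 0 called and 0 with an unadjusted p under 0.05 where 0.00349% of all genes were called.

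The third question was whether the genes of a unit kept their proportions. Because the 18S, 5.8S and 26S genes occur together in each unit, ratios between them do not contain the number of whole units. The 18S genes held 31.4% to 33.1% of the rDNA counts and the 26S genes 60.5% to 62.6% in the 12 libraries. Counts were summed over the copies of each gene and divided by the length of its whole copy, antisense overlaps included. This gave the 26S to 18S ratio of 1 unit. That ratio was 0.916, 0.913 and 0.936 in the hrde-2 H3K9me3 libraries, 0.955, 0.956 and 0.927 in hrde-1 and 0.925, 0.938 and 0.934 in wild-type, against 0.980, 0.972 and 0.997 in the hrde-2, hrde-1 and wild-type IgG libraries. All 9 H3K9me3 libraries were below the IgG library of their genotype, with a mean log2 difference of -0.07 (exact permutation test stratified by genotype, p = 0.015625, adjusted p = 0.125 over 16 comparisons of composition). The ratio overlapped between genotypes in each pair of H3K9me3 groups.

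The 5.8S gene held 6.50 ± 0.0827% of the rDNA counts in hrde-2, 6.65 ± 0.0839% in hrde-1 and 6.46 ± 0.122% in wild-type H3K9me3 libraries (SD, n = 3 each). Its share was higher in hrde-1 than in wild-type by 0.198 percentage points and lower in hrde-2 than in hrde-1 by a difference of -0.152 points. The groups of both pairs did not overlap (exact permutation p = 0.1, the smallest possible, adjusted p = 0.32), but they nearly touched. The lowest hrde-1 library had 6.598%, against 6.596% in the highest wild-type library and 6.590% in the highest hrde-2 library. In IgG the share was 7.13% in hrde-2 (Wilson interval 6.33% to 8.02%, from 254 counts), 6.21% in hrde-1 (5.74% to 6.72%) and 5.94% in wild-type (5.79% to 6.10%). Per kb of 1 unit, 5.8S counts were 2.17 to 2.61 times those of 18S in the 12 libraries. Antisense genes overlap parts of the 18S genes but not rrn-2.1, and fragments in the overlaps can go uncounted. The bearing of this on the ratio was not tested.

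The partial 26S copy rrn-3.56 held 9.39 ± 0.140% of the 26S counts in hrde-2, 9.26 ± 0.138% in hrde-1 and 8.98 ± 0.213% in wild-type H3K9me3 libraries (SD, n = 3 each), against 10.3%, 10.1% and 10.1% in the hrde-2, hrde-1 and wild-type IgG libraries. Its whole partner rrn-3.1 accordingly had a higher share with H3K9me3, by 0.981 points (exact permutation test stratified by genotype, p = 0.015625, adjusted p = 0.125). The share of rrn-3.1 was lower in hrde-2 than in wild-type by a difference of -0.417 points, without overlap (exact permutation p = 0.1, adjusted p = 0.32). Since these copies are 99.9% identical over the shared stretch, this share measures how fragments were placed between them as well as where they came from.

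**Figure D4:**
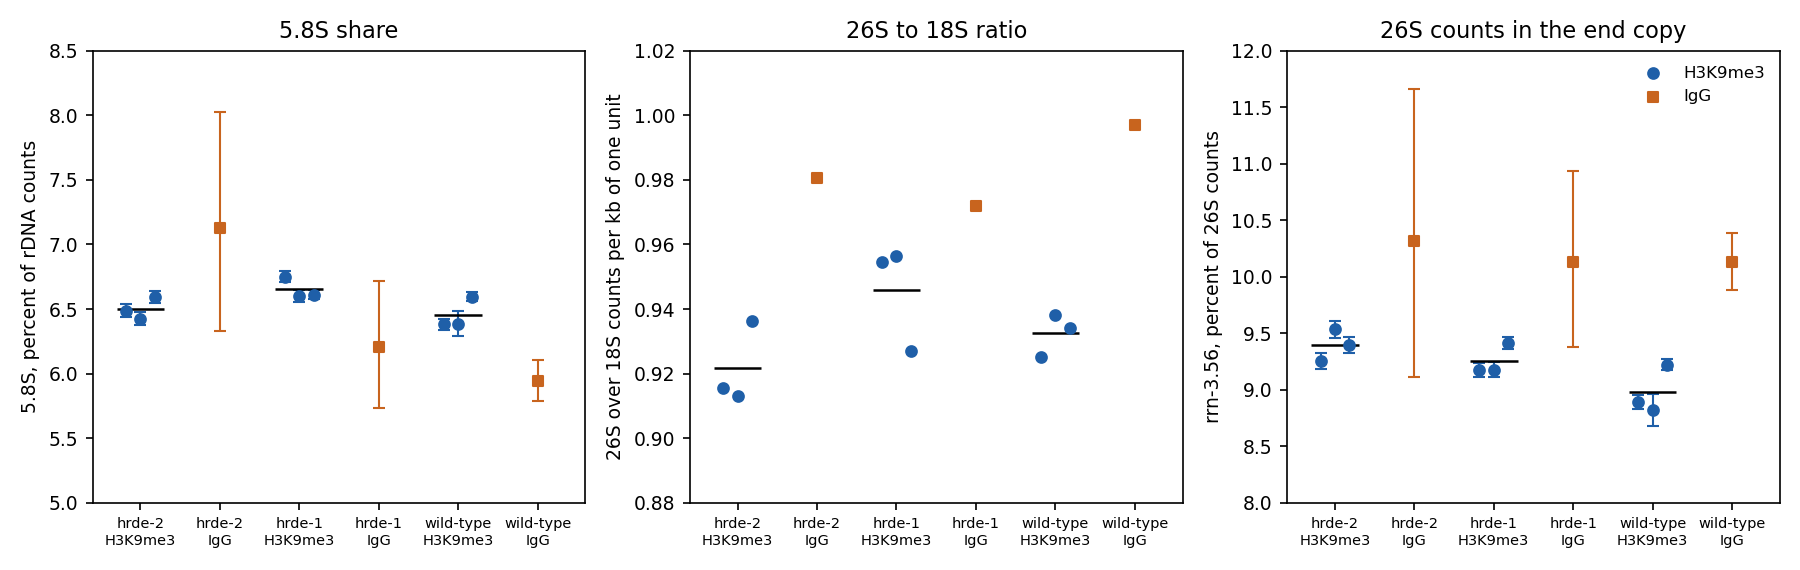
Proportions within the repeat in each library by genotype (x axis): 5.8S as a percent of rDNA counts, 26S over 18S counts per kb of 1 unit, and rrn-3.56 as a percent of 26S counts (y axes of the 3 panels, which do not start at 0), with 95% Wilson intervals on the IgG shares. All 9 H3K9me3 libraries have a lower 26S to 18S ratio and a lower rrn-3.56 share than the IgG library of their genotype, whereas the 5.8S share is below IgG in hrde-2 and above it in hrde-1 and wild-type.

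The 5S array, unlike the rDNA, had mean shares above IgG in hrde-1 and wild-type, whereas in hrde-2 its mean was below IgG. The 16 5S genes (rrn-4, 15 of them on chromosome V) took 0.501%, 0.480% and 0.527% of H3K9me3 counts on average in hrde-2, hrde-1 and wild-type, against 0.559%, 0.295% and 0.302% in IgG. In hrde-2, every H3K9me3 value lay inside the Wilson interval of the IgG share (0.448% to 0.697%). The ratios of these means to IgG were 0.896, 1.63 and 1.74 in hrde-2, hrde-1 and wild-type. As shares of the counts outside the rDNA genes, the ratios were 0.791, 1.51 and 1.38. Relative to the rDNA counts of the same library, 5S counts were 3.01%, 3.54% and 3.16% in the hrde-2 H3K9me3 libraries, 2.24%, 3.51% and 2.20% in hrde-1 and 2.85%, 2.91% and 2.26% in wild-type, against 2.19%, 1.19% and 0.814% in the hrde-2, hrde-1 and wild-type IgG libraries. This ratio, which was chosen after its values were seen, was above IgG in 9 of 9 libraries, by a log2 difference of 1.13 (exact permutation test stratified by genotype, p = 0.015625, adjusted p = 0.0625 over 4 comparisons). In the additive edgeR fit, 8 of 16 5S genes were called higher in H3K9me3 than in IgG, where 5.2% of all genes were called higher. Their number was 5 with total counts, 5 with TMM factors without the rDNA and 0 with RLE factors, where 3.94%, 3.85% and 1.08% of all genes were called higher. The median log2 fold change of the 16 genes (0.82 with TMM) was close to the 0.84 of all genes. The 5S gene with the most counts, rrn-4.1 (chromosome V, 17120968 to 17121086), was not among the 8 called with TMM (log2 fold change 0.64 ± 0.26, edgeR adjusted p = 0.0989). In the comparisons between genotypes 0 of 16 5S genes were called by edgeR, and 4, 1 and 2 had an unadjusted p under 0.05 in hrde-2 over wild-type, hrde-1 over wild-type and hrde-2 over hrde-1. Of all genes, 0.495%, 0.76% and 0.443% were called in these comparisons, and 9.30%, 11.01% and 6.44% had an unadjusted p under 0.05.

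The mitochondrial rRNA genes, which lie on DNA without histones and in many copies per cell, also had lower mean shares with H3K9me3 than in IgG. Their share was 0.142%, 0.292% and 0.159% in the hrde-2, hrde-1 and wild-type H3K9me3 libraries on average, against 0.179%, 0.635% and 0.597% in IgG (exact permutation test stratified by genotype, p = 0.03125, adjusted p = 0.167). The hrde-2 IgG share came from 25 counts, and its Wilson interval (0.121% to 0.264%) held the hrde-2 H3K9me3 mean. Replicate 1 of hrde-2 (0.181%) was above that IgG share. In the additive edgeR fit both genes were called lower in H3K9me3 than in IgG, WBGene00014454 by -1.26 ± 0.19 and WBGene00014472 by -0.93 ± 0.20 on the log2 scale (adjusted p = 2.49e-07 and 0.001003), where 1.19% of all genes were called lower, and 2 of 2 were called lower under each of the 4 scalings. Within genotypes with TMM, the median log2 fold change of the 2 genes was 1.11 in hrde-2, -0.36 in hrde-1 and -2.14 in wild-type. The medians of all genes were 8.72, 7.84 and 0.72. Between genotypes both mitochondrial rRNA genes moved with the rest of the mitochondrial genome. WBGene00014454 was higher in hrde-1 than in wild-type by 0.80 ± 0.15 and WBGene00014472 by 0.89 ± 0.18 (edgeR, adjusted p = 0.00324 and 0.00634), and 28 of the 36 mitochondrial genes were called higher, against 0.76% of all genes called in either direction. In hrde-2 they were lower than in hrde-1 by -0.98 ± 0.15 and -1.23 ± 0.18 (adjusted p = 0.000118 and 3.89e-05), and 36 of 36 mitochondrial genes were called lower, against 0.443% of all genes called. Whether mitochondrial DNA in the nuclear preparations bears on the rDNA share was not tested.

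**Figure D5:**
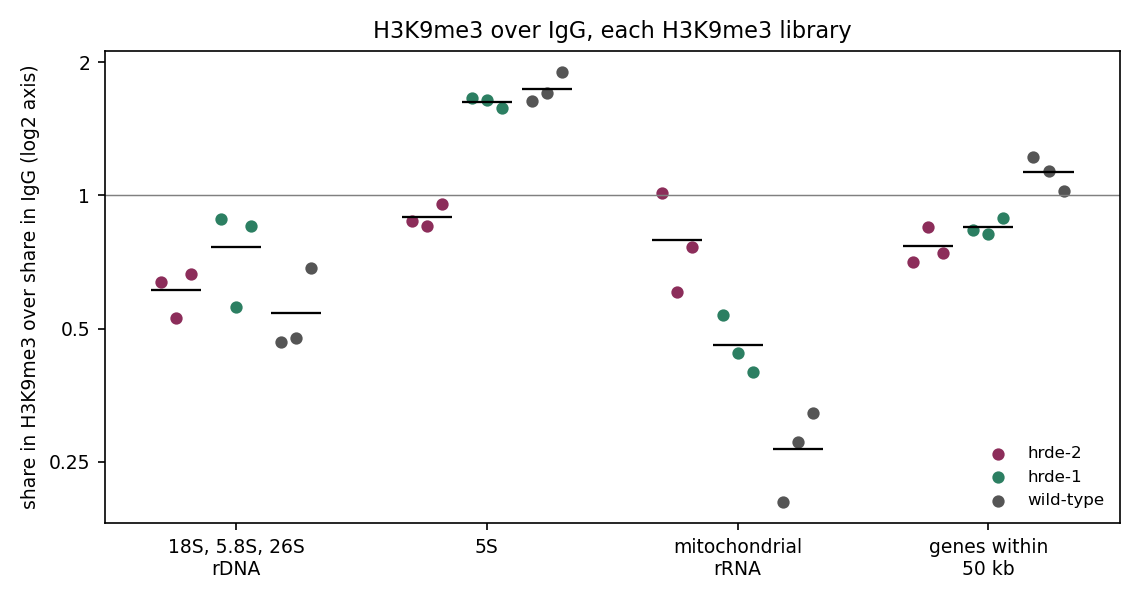
Share of counts in each H3K9me3 library divided by the share in the IgG library of its genotype (y axis, log2 scale) for the rDNA, the 5S genes, the mitochondrial rRNA genes and the genes within 50 kb of the rDNA that overlap none of its genes (x axis). The rDNA points are all below 1 and their means are 0.610, 0.765 and 0.542 in hrde-2, hrde-1 and wild-type.

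Of the genes next to the array, 17 lie within 50 kb without overlapping an rDNA gene. Their summed share was 0.0990%, 0.0902% and 0.0824% in the hrde-2, hrde-1 and wild-type H3K9me3 libraries, against 0.129% (Wilson interval 0.0816% to 0.204%), 0.106% (0.0781% to 0.145%) and 0.0731% (0.0629% to 0.0849%) in IgG, from 18, 40 and 171 counts. The mean H3K9me3 share lay inside the IgG interval in each genotype, and a difference of the sum was not detectable at this depth. Of the 14 genes within 50 kb that were tested, F31C3.14 and F31C3.16 included, edgeR called 0 in any comparison between genotypes. Of all genes, 0.495%, 0.76% and 0.443% were called in hrde-2 over wild-type, hrde-1 over wild-type and hrde-2 over hrde-1. In these comparisons 7, 4 and 3 of the 14 had an unadjusted p under 0.05, where 9.30%, 11.01% and 6.44% of all genes did. In the additive fit of H3K9me3 over IgG, 1 of the 14 was called higher and 2 lower, where 5.2% and 1.19% of all genes were. F31C3.6 was higher (log2 fold change 2.29 ± 0.51, edgeR adjusted p = 0.00165), from 0, 1 and 7 counts in the hrde-2, hrde-1 and wild-type IgG libraries. The antisense genes F31C3.14 and F31C3.16, which overlap the 26S genes, were lower (-0.75 ± 0.20 and -0.71 ± 0.20, adjusted p = 0.0135 and 0.0205). These 3 were named after their values were seen.

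Genes that make and process rRNA were described from a list of 41 symbols (RNA polymerase I subunits and factors, nucleolar and processing proteins, and exosome subunits), 38 of which matched a gene and 37 of which were tested. In the comparisons between genotypes edgeR called 0 of 37. Of all genes, 0.495%, 0.76% and 0.443% were called in hrde-2 over wild-type, hrde-1 over wild-type and hrde-2 over hrde-1. In each comparison 5 of the 37 had an unadjusted p under 0.05, where 9.30%, 11.01% and 6.44% of all genes did. The median log2 fold changes were 0.18, 0.08 and 0.05 in hrde-2 over wild-type, hrde-1 over wild-type and hrde-2 over hrde-1, beside 0.00 to 0.01 for all genes. In H3K9me3 over IgG, the exosome subunit gene exos-2 was called higher (adjusted p = 0.0390, with 0 counts in each IgG library) and the nucleolar protein gene nol-14 lower (-1.57 ± 0.45, edgeR adjusted p = 0.0192). Of all genes, 5.2% were called higher and 1.19% lower in this comparison. The median of the list was 0.41, beside 0.84 for all genes. With RLE factors 0 of the 37 were called higher and 1 lower, where 1.08% and 2.08% of all genes were. With total counts 0 were called higher and 1 lower, where 3.94% and 1.29% of all genes were.

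Small nucleolar RNAs guide the modification of rRNA, and 255 of their genes were tested. In hrde-2 over wild-type edgeR called 2 lower (T08B6.64 and C53B7.8) and 0 higher, where 0.495% of all genes were called. In hrde-1 over wild-type it called 2 lower (Y73F8A.1175 and C53B7.8) and 1 higher (R166.7), where 0.76% of all genes were called. In hrde-2 over hrde-1 it called 1 lower (T02E1.9) and 0 higher, where 0.443% of all genes were called. These genes were named after their values were seen, and their numbers were near those of all genes. In H3K9me3 over IgG, 7 were called higher and 0 lower, beside 5.2% and 1.19% of all genes. With RLE factors 3 were called higher and 2 lower, beside 1.08% and 2.08% of all genes.

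Few genes followed the rDNA from library to library. Among 3904 genes with a mean of at least 50 CPM, Pearson's r with the summed rDNA over the 9 H3K9me3 libraries had a median of -0.446, and 89.2% of genes had a negative r. A rise of the rDNA share lowers the shares of all other genes in the same library, so these values are not independent of the totals. The 5 genes with the highest r were F30H5.4 (a snoRNA gene on chromosome III, 0.867), ZK678.11 (0.866), T18D3.t1 (0.852), M02F4.12 (0.848) and F15G9.9 (0.828), the last 4 being non-coding genes of the X chromosome. These 5 were picked on the same libraries, which the comparisons between genotypes also used. The lowest edgeR adjusted p of any of them between genotypes was 0.0655 (F30H5.4, hrde-2 over hrde-1). In H3K9me3 over IgG, F30H5.4 (log2 fold change 2.56 ± 0.72, edgeR adjusted p = 0.0185) and M02F4.12 (1.75 ± 0.53, 0.0268) were called higher. The others were not called there, and 5.2% of all genes were called higher.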

How the data were processed

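CUT&Tag fragments were measured in 9 H3K9me3 and 3 IgG libraries. The deposited values are raw counts per gene: the authors aligned read pairs with bowtie2 (2.5.0) to WS258 and counted fragments on exons with featureCounts (2.0.1) of Subread, without strand. Handling of duplicates and of fragments with several matches is not given in the sources used here. Which copy of a repeated gene a fragment was placed on is therefore uncertain.

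Gene symbols came from RefSeq by identical coordinates and gene types from Ensembl 115 (46564 of 46760 identifiers matched); Ensembl also names rrn-1.2 as rrn-1.1. No sequence is printed. Shares are percentages of all gene counts. Tests of genes used the quasi-likelihood method of edgeR 4.0.16 (R 4.3.3; TMM scaling, filterByExpr with a minimum count of 10, 28691 genes, Benjamini-Hochberg adjustment over all of them, threshold 0.05). One fit held the 9 H3K9me3 libraries, one all 12 libraries with genotype as a term, and one all 12 in 6 groups. The fits were tested on simulated data. For H3K9me3 over IgG, few simulated 2-fold changes were called, whereas most 4-fold changes among the genes of most counts were. Shares and ratios were compared by exact two-sided permutation tests (smallest p 0.1 for 3 against 3, 0.015625 for antibody labels permuted within genotypes). Density comparisons with IgG used the mean protein-coding density, since the median was 0 in 2 IgG libraries. For correlations, log2 CPM used a pseudocount of 0.5. Intervals are 95% Wilson intervals and cover counting error only, as PCR copies are not independent molecules.

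Named genes were the 5 rDNA genes, the 5 others most correlated with their sum, pathway or neighbouring genes called between genotypes (there were 0), the 5S gene with the most counts and the mitochondrial rRNA genes. Genes and lists were chosen with earlier results of these data known. Replicate numbers were not treated as pairs in the main tests. The alternatives were other scalings (RLE, total counts, TMM without the rDNA), no filter, DESeq2 1.42.0, a replicate block, thinning, and leaving out libraries or genotypes. Neighbours without overlapping genes, scalings and left-out libraries within genotypes, scalings of the gene lists, RLE for the interactions and the 5S to rDNA ratio were added after seeing the data. Peaks and signal tracks were not analysed here.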

Additional observations from a re-analysis of the deposited data

Results flagged for a closer look

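The difference between H3K9me3 and IgG ran in opposite directions between genotypes for 3 shares, with every H3K9me3 library on the same side of its IgG library within a genotype. These differences between genotypes were not tested, and each rests on 1 IgG library per genotype. The 5.8S share of rDNA counts was below IgG in hrde-2 (-0.629 percentage points) and above it in hrde-1 (0.446) and wild-type (0.512). In hrde-2, the H3K9me3 values lay inside the Wilson interval of the IgG share (6.33% to 8.02%). The 5S share of all counts was below IgG in hrde-2 (-0.0581 points) and above it in hrde-1 (0.185) and wild-type (0.225), and the hrde-2 IgG library held 78 5S counts. The hrde-2 H3K9me3 values again lay inside the Wilson interval of the IgG share (0.448% to 0.697%). The share of the genes within 50 kb that overlap no rDNA gene was below IgG in hrde-2 (-0.0300 points) and hrde-1 (-0.0161) and above it in wild-type (0.00929). The mean H3K9me3 share lay inside the Wilson interval of the IgG share in each genotype. As a share of the counts outside the rDNA genes, it was below IgG in every genotype. The ratio of its mean to IgG was then 0.676 in hrde-2, 0.790 in hrde-1 and 0.886 in wild-type.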

How the results depend on the processing

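Every value here is a share of its own library, each genotype had 1 shallow IgG library, and neither the number of rDNA units nor the placement of fragments between copies could be measured. The replicate numbers did not clearly pair the libraries. Correlations ran between -0.049 and 0.116 for same-numbered libraries and between -0.133 and 0.062 for differently numbered ones. With the replicate numbers as a block, 0 of 5 rDNA genes were called in each genotype comparison. The shares under this block differed by -4.57, -1.21 and -3.35 points for hrde-2 against wild-type, hrde-1 against wild-type and hrde-2 against hrde-1 (exact p = 0.25, 1 and 0.25, the smallest possible being 0.25).

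For the rDNA share in H3K9me3 minus IgG, the difference was -13.5 points without the hrde-1 libraries, -11.4 without hrde-2 and -7.89 without wild-type (exact p = 0.0625, the smallest that 2 genotypes allow). As TMM-scaled CPM it was -50694 (exact p = 0.516). The share of neighbouring genes, once genes that overlap the rDNA were left out, differed by 0.0166 points in hrde-2 minus wild-type, 0.00787 in hrde-1 minus wild-type and -0.0123 in H3K9me3 minus IgG.

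Of the 5 rDNA genes, 5 were called in hrde-2 over wild-type with no filter. For H3K9me3 over IgG, RLE factors called 1, total counts 5, and the fit without wild-type libraries 4. For the difference from wild-type, TMM factors without the rDNA called 5 in hrde-1 and 5 in hrde-2, and RLE factors 4 in hrde-2. Within hrde-2, total counts called 3.

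Directions of H3K9me3 over IgG turned as follows, on the log2 scale. The 6-group fit gave 0.050, 0.058 and 0.039 for rrn-1.1, rrn-1.2 and rrn-2.1. Without wild-type libraries, rrn-1.1, rrn-1.2, rrn-2.1, rrn-3.1 and rrn-3.56 had 0.72, 0.74, 0.68, 0.69 and 0.52. With total counts the same genes had -0.65, -0.64, -0.84, -0.72 and -0.87 within hrde-2, -0.38, -0.36, -0.29, -0.39 and -0.54 within hrde-1, and -0.27, -0.28, -0.56, -0.32 and -0.33 for hrde-2 against hrde-1, and rrn-2.1 had -0.083 for hrde-2 against wild-type. With RLE factors they had -0.21, -0.19, -0.12, -0.22 and -0.37 within hrde-1.

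Over leaving out each H3K9me3 library in turn, hrde-1 minus wild-type ran between -2.69 and 1.43 points for the rDNA share, -0.27 and 0.172 (log2) for its density over coding genes, and -0.257 and 0.0796 (log2) for the 5S to rDNA ratio. The rrn-1.1 share of 18S in hrde-2 minus wild-type ran between -0.339 and 0.103 points, and the share of neighbours in hrde-2 minus hrde-1 between -0.00105 and 0.0242. In hrde-1 over wild-type, the log2 fold changes ran between -0.27 and 0.173 for rrn-1.1, -0.257 and 0.207 for rrn-1.2, -0.229 and 0.269 for rrn-2.1, -0.26 and 0.203 for rrn-3.1 and -0.215 and 0.275 for rrn-3.56. In H3K9me3 over IgG they ran between -0.12 and 0.061 for rrn-1.1, -0.114 and 0.071 for rrn-1.2, -0.13 and 0.051 for rrn-2.1 and -0.175 and 0.016 for rrn-3.1, and for rrn-2.1 the difference of hrde-2 against hrde-1 between -0.153 and 0.235. The number of rDNA genes called lower within wild-type ran between 1 and 5, and that of the difference from wild-type between 0 and 5 in both mutants. The causes of these changes were not tested.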
